A study of Mus musculus with 6 samples.

Results

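DNA replication copies the genome in S phase, and the RNA of 57 genes that encode its machinery was followed here in RAW 264.7 cells, a mouse macrophage line that divides in culture. These genes were the rows of the deposited expression table whose gene name was on a list of 57 symbols, which runs from origin licensing through the helicase, the polymerases and the clamp to nucleotide supply. All 57 were found among the 34745 genes of the table. The study set 3 libraries from cells treated with BPAP against 3 libraries from cells of the same line given DMSO, the solvent. BPAP is the usual short name of bisphenol AP, a bisphenol related to bisphenol A. The labels used here state neither the dose nor the time of exposure. They do not say whether the libraries of a group came from separate cultures, so a p-value here compares the groups with a spread that may be technical. Both groups were labelled as macrophage cells, with no genotype or added stimulus named.

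Replication is prepared in G1, when the origin recognition complex, helped by Cdc6 and Cdt1, loads rings of Mcm2 to Mcm7 onto DNA. In S phase the kinase Cdc7 with its activator Dbf4, together with Topbp1, turns these rings into helicases that also hold Cdc45 and the GINS complex. DNA polymerase alpha and primase then lay down primers, polymerases delta and epsilon extend them on the Pcna clamp, and Fen1 and Lig1 finish the pieces of the lagging strand. Ribonucleotide reductase supplies the nucleotides, while Uhrf1, Dnmt1 and the Chaf1 histone chaperone copy DNA methylation and chromatin behind the fork. Many of these genes are known targets of the E2F factors, which drive the entry into S phase, and their RNA is high in dividing cells and low in cells at rest.

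In BPAP-treated cells 23 of the 57 genes were lower than in DMSO and 0 were higher, by the quasi-likelihood test of edgeR at an adjusted p under 0.05 (Benjamini-Hochberg, over the 11711 genes that were tested). The 23 genes called lower are 40.4% of the list. The list was chosen with earlier results of these data known, so this share describes it and is no test. Over all genes tested, 15.5% were lower and 16.2% were higher. The number higher, 1901 with all libraries, was 1244 without DMSO 1, 1275 without DMSO 2 and 1338 without DMSO 3. The number lower, 1814 with all libraries, was 1366, 1235 and 1309 in the same order. At an unadjusted p under 0.05, 27 of the 57 were lower and 1, Fen1, was higher, against 21.2% and 22.5% of all genes tested. DESeq2 and limma-voom each called 23 lower and 1, again Fen1, higher. The strongest decreases were in Pola1, the catalytic subunit of DNA polymerase alpha, at -1.18 on the log2 scale, Rrm2, the small subunit of ribonucleotide reductase, at -1.07, Cdc7 at -0.996, Clspn at -0.92 and Uhrf1 at -0.86. Not every subunit of a complex was called: Mcm4 and Mcm6 fell while Mcm2 was at 0.01, and the Pcna clamp was at 0.04. The median log2 fold change was -0.25 over the 57 genes and 0.02 over all genes tested. All 3 BPAP libraries lay below all 3 DMSO libraries for 27 of the 57, where 23.8% of all genes did so, and above them for 2, Fen1 and Rfc4, where 25.2% of all genes did so. Added up over the 57 genes, the level was 2171, 2118 and 2292 CPM (counts scaled by library size and TMM factor) in the BPAP libraries, against 2777, 2853 and 2760 CPM in the DMSO libraries, so the sums did not overlap. These are bulk libraries, in which fewer cells in S phase and less RNA per cell cannot be told apart.

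**Figure D1:**
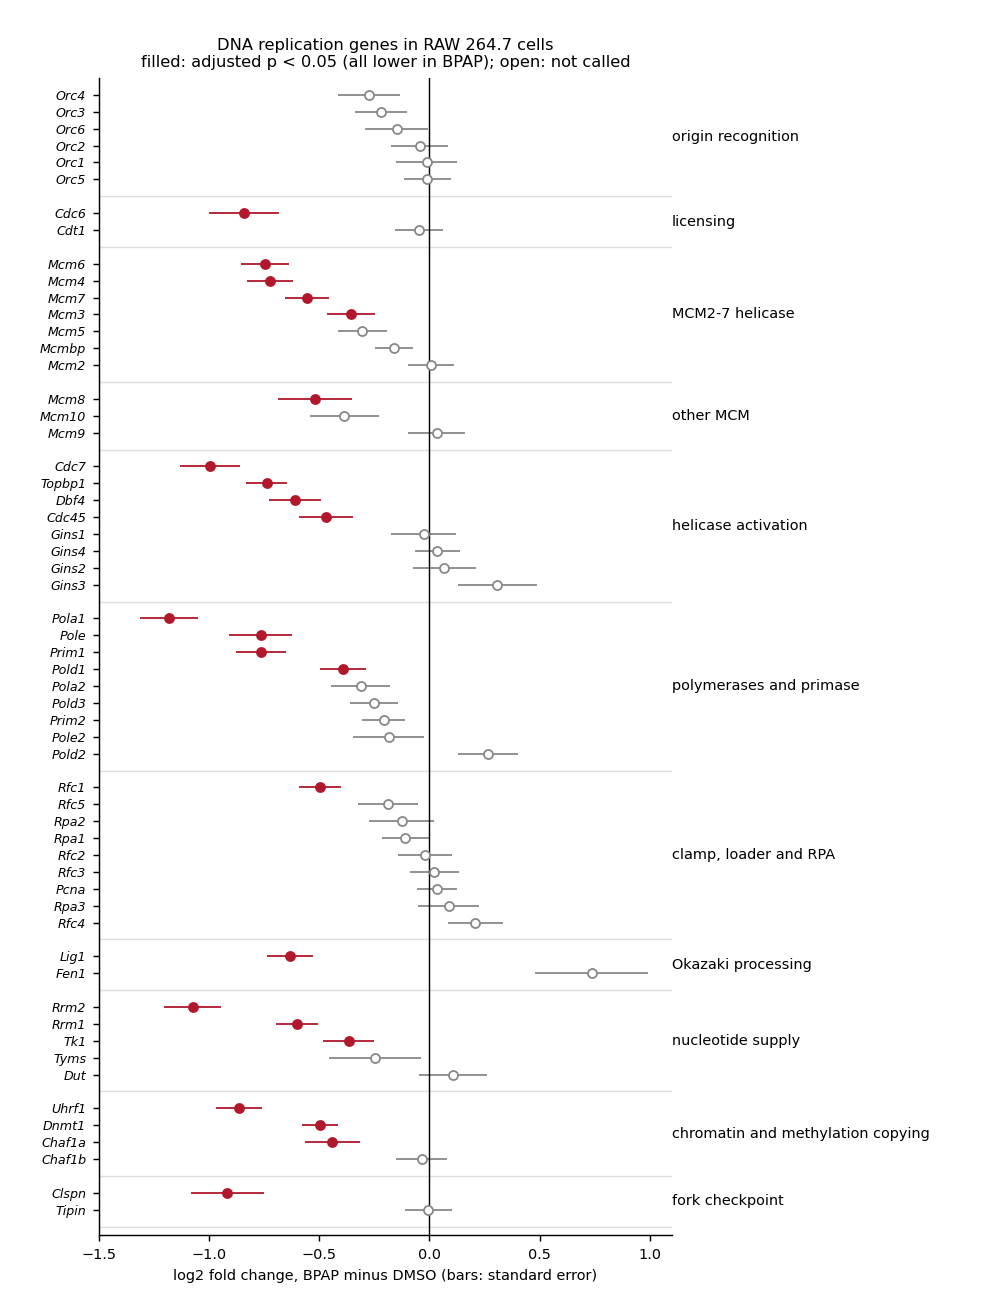
Log2 fold change of each of the 57 genes, BPAP minus DMSO, on the x axis, grouped by role down the page; bars are standard errors, with 3 libraries in each group. Filled red points are the 23 genes called lower, which run down to -1.18 for Pola1, and open points are the 34 that were not called, up to 0.74 for Fen1.

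The libraries held 12427563, 12056332 and 12425350 counts in BPAP and 11084705, 12550065 and 13806559 in DMSO, and all 57 genes passed the filter on low counts, with 71 (Cdc6) to 4633 (Dnmt1) counts in a library. Macrophage markers fixed as a list were abundant, with a summed 5153 to 5524 CPM in BPAP and 4584 to 5168 CPM in DMSO, except Mertk, which had 0 counts in all 6 libraries. Of the 9 markers tested, 5 were higher and 2 lower in BPAP. The endotoxin co-receptor Cd14 was at 1.299 with adjusted p = 0.0121 and the Fc receptor Fcgr1 at 1.23 with adjusted p = 0.000421, while the phosphatase Ptprc was at -0.64 with adjusted p = 0.00181 and the growth factor receptor Csf1r at -0.41 with adjusted p = 0.0130. Markers of fibroblasts, epithelium, T cells and B cells summed to at most 1.06 CPM per list in any library, and Pdgfra, Dcn, Epcam and Cd3e had 0 counts. Ribosomal protein genes made up 4.69% to 5.35% of counts in BPAP, against 3.48% to 3.69% in DMSO. Mitochondrial genes made up 6.53% to 7.55% in BPAP and 7.02% to 7.35% in DMSO 2 and 3, with 10.84% in DMSO 1. Without DMSO 1, 22 of the 57 genes were lower, and leaving out each library in turn gave 17 to 25. The part of these library features and of the marker changes in the results was not tested.

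**Figure D2:**
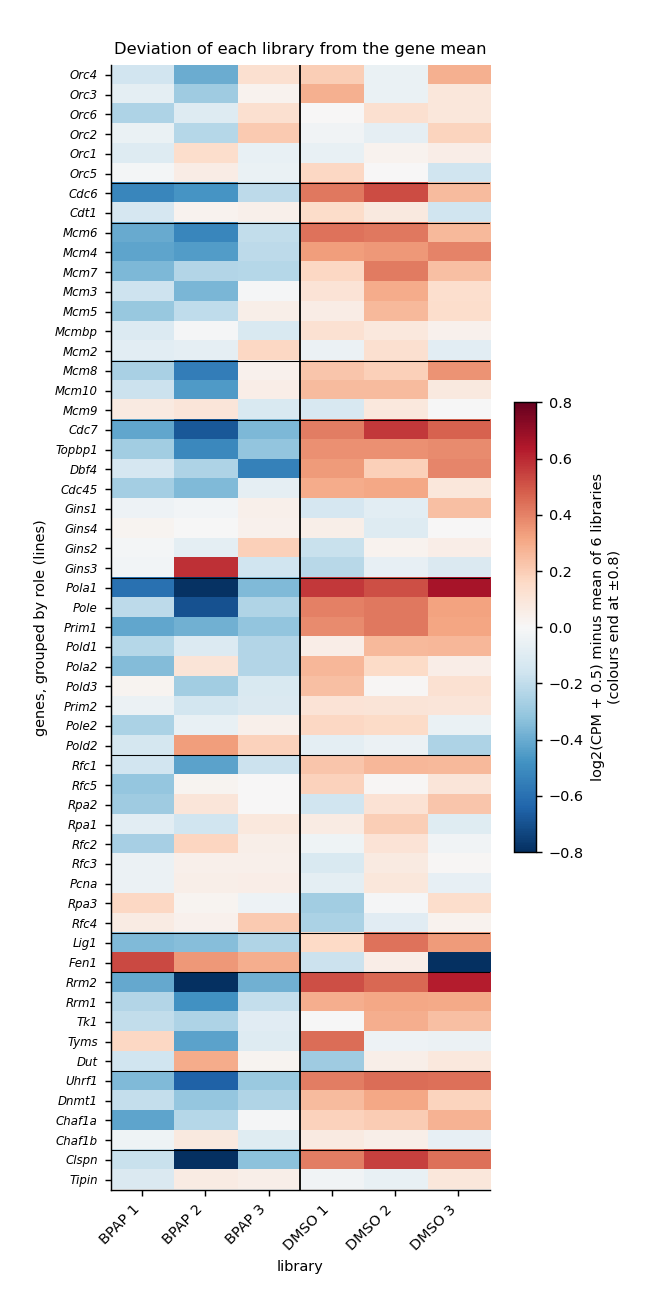
Deviation of each library (x axis) from the mean of the 6 libraries for each of the 57 genes (y axis, grouped by role), as log2(CPM + 0.5), with blue for lower and red for higher and colours ending at ±0.8. BPAP 2 is the darkest blue for many genes called lower, such as Pola1, Rrm2 and Clspn, and the DMSO 3 value of Fen1 stands out as low.

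The promoters of several of these genes carry the sequence that E2F factors are known to bind, and some of them are printed here as a description. Whether E2F factors had a part in the changes was not tested. RefSeq promoter windows (250 bases before to 50 bases after the start, build GRCm38.p6) were found for 49 of the 57 genes. The E2F-type letters TTTCCCGC or TTTGGCGC, read on both strands, stood in 8 of 21 genes called lower (38.1%) and in 8 of 28 other genes of the list (28.6%). Over all tested genes with a promoter the share was 3.71%, and over all genes with one it was 1.8%. The 8 called lower were Cdc6, Dnmt1, Mcm3, Mcm6, Mcm7, Mcm8, Pola1 and Pold1, and the 8 others were Cdt1, Gins3, Mcm5, Mcmbp, Orc3, Pold3, Pole2 and Rfc3. Genes that fell and genes that were not called thus both held them. TTTGAA, the CHR element of late cell cycle genes, stood in 16.3% of the listed genes and 14.5% of tested genes, and CCAAT in 59.2% and 43.5%. A match describes the letters of the window and is not a binding site. The windows below are written 5′ to 3′ along the gene in lower case, with E2F-type letters, in either direction, in capitals. They lie at chr11:98907901-98908200 on the plus strand for Cdc6, chr1:20820263-20820562 on the minus strand for Mcm3, chr1:128359656-128359955 on the minus strand for Mcm6, chr5:138171834-138172133 on the minus strand for Mcm7, chrX:93632106-93632405 on the minus strand for Pola1 and chr8:122567765-122568064 on the plus strand for Cdt1. The first 5 belong to genes that were lower in BPAP, and Cdt1 is shown as a gene that carries the motif and was not called.
Cdc6: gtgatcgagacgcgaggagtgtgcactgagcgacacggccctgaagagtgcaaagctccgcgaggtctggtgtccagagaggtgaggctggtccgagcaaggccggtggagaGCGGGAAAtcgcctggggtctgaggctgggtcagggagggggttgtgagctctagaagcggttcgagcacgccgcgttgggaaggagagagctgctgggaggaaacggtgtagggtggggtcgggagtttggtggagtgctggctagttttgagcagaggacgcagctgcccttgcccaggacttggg
Mcm3: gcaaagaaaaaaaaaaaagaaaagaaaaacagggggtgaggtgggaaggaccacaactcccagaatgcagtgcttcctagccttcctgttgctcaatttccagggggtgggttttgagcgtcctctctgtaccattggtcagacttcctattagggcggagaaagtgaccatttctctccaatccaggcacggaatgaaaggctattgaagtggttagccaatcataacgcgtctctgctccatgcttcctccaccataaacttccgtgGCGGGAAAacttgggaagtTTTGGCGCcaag
Mcm6: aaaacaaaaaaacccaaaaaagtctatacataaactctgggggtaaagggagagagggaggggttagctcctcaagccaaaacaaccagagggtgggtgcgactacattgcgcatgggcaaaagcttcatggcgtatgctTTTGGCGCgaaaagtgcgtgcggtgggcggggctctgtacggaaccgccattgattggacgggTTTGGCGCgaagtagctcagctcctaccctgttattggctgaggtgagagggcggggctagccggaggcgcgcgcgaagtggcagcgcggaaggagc
Mcm7: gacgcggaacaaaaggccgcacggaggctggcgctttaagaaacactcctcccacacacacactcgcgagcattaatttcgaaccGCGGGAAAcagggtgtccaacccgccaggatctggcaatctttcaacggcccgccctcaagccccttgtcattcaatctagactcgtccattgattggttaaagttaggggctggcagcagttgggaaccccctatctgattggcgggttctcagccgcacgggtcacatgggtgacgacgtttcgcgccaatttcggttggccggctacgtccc
Pola1: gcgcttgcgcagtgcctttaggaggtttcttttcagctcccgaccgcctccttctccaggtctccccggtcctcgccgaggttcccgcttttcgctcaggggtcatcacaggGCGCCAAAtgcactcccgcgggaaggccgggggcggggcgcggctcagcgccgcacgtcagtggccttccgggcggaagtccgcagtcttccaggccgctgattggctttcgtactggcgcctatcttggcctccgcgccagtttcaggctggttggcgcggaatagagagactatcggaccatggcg
Cdt1: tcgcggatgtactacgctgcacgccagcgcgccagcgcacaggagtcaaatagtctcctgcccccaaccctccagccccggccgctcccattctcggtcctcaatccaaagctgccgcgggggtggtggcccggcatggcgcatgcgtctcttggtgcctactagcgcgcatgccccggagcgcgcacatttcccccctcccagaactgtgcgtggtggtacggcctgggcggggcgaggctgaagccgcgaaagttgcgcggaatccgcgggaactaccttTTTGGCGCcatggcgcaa
In the Mcm6 window the motif stood at 2 places, 110 and 47 bases before the start, and in Cdc6 and Pola1 at 138 bases before it. In Mcm3 both versions of the motif lay after the start.

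The 6 genes of the origin recognition complex, which marks where replication can begin, were not called in either direction by edgeR with treatment as the only term. None was at an unadjusted p under 0.05 there. DESeq2, limma-voom and the FPKM tests called none of them either. Orc4 (ENSMUSG00000026761, chr2:48902824-48950277) had 59.4, 49.98 and 72.2 CPM in the BPAP libraries, against 75.8, 63.6 and 80.5 CPM in the DMSO libraries. The groups overlapped, since BPAP 3 lay above DMSO 2, and the log2 fold change was -0.28 ± 0.14 (SE, adjusted p = 0.162). The result for Orc4 changed with the choice of libraries and method. It was called lower by edgeR without BPAP 3 (adjusted p = 0.0449) and with a replicate term (adjusted p = 0.0331, and 0.0331 to 0.487 over its 17 alternatives). The sign for Orc4 turned to 0.23 once the length and GC trend described further on was removed. Orc3 (ENSMUSG00000040044, chr4:34570796-34614944) had 58.9, 50.9 and 63.4 CPM in the BPAP libraries, against 75.8, 59.9 and 66.2 CPM in the DMSO libraries, again with overlap, at -0.22 with adjusted p = 0.177. Its value was 0.01 without that trend. Orc1, a subunit known to be degraded after G1 in human cells, averaged 10.4 ± 1.01 CPM in BPAP and 10.5 ± 0.44 CPM in DMSO (SD, n = 3 each), at -0.01 with adjusted p = 0.953. Orc2, Orc5 and Orc6 lay between -0.15 and -0.01. Exons of Orc1, Orc2, Orc4 and Orc6 overlap genes on the opposite strand and Orc5 overlaps a pseudogene, so their counts are uncertain.

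Of Cdc6 and Cdt1, which load the helicase together, 1 was lower (50%, against 15.5% over all genes tested). Cdc6 (ENSMUSG00000017499, chr11:98907801-98923940), the ATPase of the loading step, had 5.77, 5.99 and 7.29 CPM in the BPAP libraries, against 11.6, 12.4 and 10.2 CPM in the DMSO libraries. Every BPAP library lay below every DMSO library, with a log2 fold change of -0.84 ± 0.16 (SE) with an adjusted p of 0.00425. Its 71 counts in BPAP 1 were the lowest count of the list in any library, and its call held under each of the 15 alternatives in which it could be tested. Cdt1 (ENSMUSG00000006585, chr8:122568015-122573128), which brings Mcm2 to Mcm7 to the origin, had 51.6, 57.7 and 58.4 CPM in the BPAP libraries, against 62.8, 60.0 and 50.7 CPM in the DMSO libraries. These values overlapped fully and the log2 fold change was -0.05 ± 0.11 (SE, adjusted p = 0.763).

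Of the 6 subunits of the MCM helicase ring and its partner Mcmbp, 4 were lower (57.1%, against 15.5% over all genes tested). Mcm4 (ENSMUSG00000022673, chr16:15623897-15637400) had 29.5, 29.1 and 34.3 CPM in the BPAP libraries, against 50.4, 50.7 and 52.5 CPM in the DMSO libraries. The DMSO libraries were tightly grouped and all BPAP libraries lay well under them, with a log2 fold change of -0.72 ± 0.10 (SE) with an adjusted p of 0.00124. Mcm6 (ENSMUSG00000026355, chr1:128331590-128359664), which pairs with Mcm4 in the ring, had 42.9, 39.5 and 49.6 CPM in the BPAP libraries, against 76.9, 76.5 and 68.1 CPM in the DMSO libraries. It fell by a like amount, with a log2 fold change of -0.75 ± 0.11 (SE) with an adjusted p of 0.00147. Mcm7 (ENSMUSG00000029730, chr5:138164583-138172422) had 46.8, 51.1 and 51.2 CPM in the BPAP libraries, against 67.5, 80.3 and 71.2 CPM in the DMSO libraries. Here too the groups stood apart, with a log2 fold change of -0.55 ± 0.10 (SE) with an adjusted p of 0.00328, although its exons overlap Ap4m1 and Cops6 on the opposite strand. Mcm4, Mcm6 and Mcm7, which can form a core complex of their own, kept their calls under all 17 alternatives.

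Mcm3 (ENSMUSG00000041859, chr1:20802968-20820312) had 75.9, 66.1 and 84.9 CPM in the BPAP libraries, against 91.9, 105 and 93.6 CPM in the DMSO libraries, with a log2 fold change of -0.36 ± 0.11 (SE) with an adjusted p of 0.0317. BPAP 3 came close to DMSO 1, and the adjusted p was 0.0722 without BPAP 1, 0.0614 without BPAP 2, 0.124 without DMSO 2 and 0.0635 without DMSO 3 (0.0150 to 0.124 over its 17 alternatives). Mcm5 (ENSMUSG00000005410, chr8:75109528-75128439), the neighbour of Mcm3 in the ring, had 51.1, 55.0 and 65.4 CPM in the BPAP libraries, against 66.0, 75.9 and 69.9 CPM in the DMSO libraries. The groups did not overlap, BPAP 3 being just under DMSO 1, but the log2 fold change of -0.30 ± 0.11 (SE) had an adjusted p of 0.0598 and was not called. Mcm5 was called lower in 7 of its 17 alternatives. Without BPAP 3 its adjusted p was 0.0248, and it was 0.0248 to 0.197 over the 17. Mcm2 (ENSMUSG00000002870, chr6:88883474-88898780) had 60.3, 60.8 and 71.9 CPM in the BPAP libraries, against 61.8, 69.9 and 60.2 CPM in the DMSO libraries. Its groups overlapped over nearly their whole range, at 0.01 ± 0.11 (SE) with an adjusted p of 0.961. Mcmbp, which binds MCM subunits outside the ring, averaged 78.0 ± 3.49 CPM in BPAP and 87.1 ± 2.78 CPM in DMSO (SD, n = 3 each). All its BPAP values lay below DMSO, but at -0.16 with adjusted p = 0.176 it was not called. Per kilobase of exon, Mcm3 was the most abundant of the 6 ring subunits in both groups, at 20.2 CPM per kb in BPAP and 25.8 CPM per kb in DMSO, and Mcm4 was the lowest in BPAP at 8.63, against 14.3 in DMSO. Mcm2 was the lowest in DMSO, at 9.25 in BPAP and 9.20 in DMSO. These levels rest on the merged exons of all annotated transcripts, 6956 bases for Mcm2 and 3589 for Mcm4, so the order is uncertain. Not divided by length, Mcm2 had a mean of 64.3 CPM in BPAP and 64.0 CPM in DMSO, against 31.0 and 51.2 CPM for Mcm4.

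**Figure D3:**
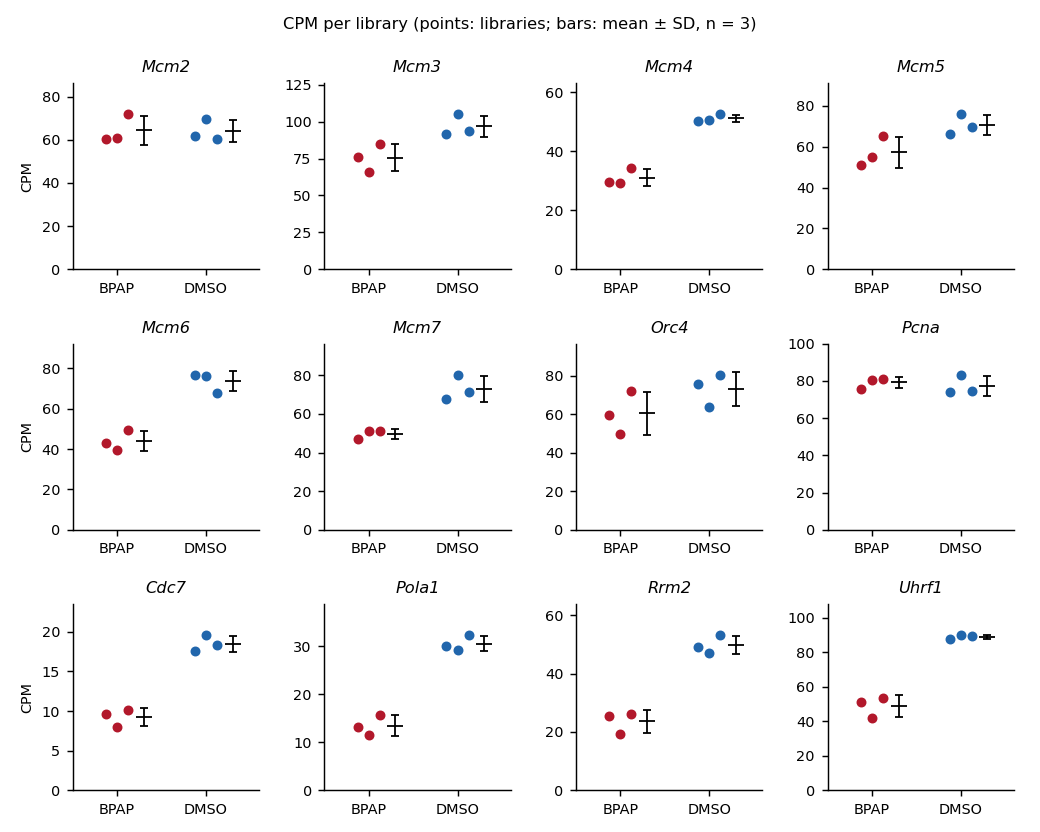
TMM-scaled CPM on the y axis, starting at 0, for 12 genes with BPAP left of DMSO; points are libraries and bars the mean ± SD of 3. The BPAP points lie below all DMSO points for Mcm3 to Mcm7, Cdc7, Pola1, Rrm2 and Uhrf1, though only just for Mcm5, and overlap them for Mcm2, Orc4 and Pcna.

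Among the MCM proteins outside the ring, 1 of 3 was lower (33.3%, against 15.5% over all genes tested). Mcm8 (ENSMUSG00000027353, chr2:132816141-132844197), a helicase of DNA repair, had 9.60, 7.73 and 11.9 CPM in the BPAP libraries, against 13.6, 13.3 and 15.0 CPM in the DMSO libraries. The groups did not overlap and it was called at -0.52 with adjusted p = 0.0383, but BPAP 3 lay nearer to DMSO, and the adjusted p was 0.0842 without BPAP 1, 0.0861 without BPAP 2, 0.0677 without DMSO 1, 0.0751 without DMSO 2 and 0.120 without DMSO 3 (0.0162 to 0.120 over its 17 alternatives). Mcm10 (ENSMUSG00000026669, chr2:4989714-5012791), which helps to start the helicase and is not a ring subunit, had 11.2, 9.15 and 13.2 CPM in the BPAP libraries, against 15.2, 15.2 and 13.4 CPM in the DMSO libraries. These groups stood just apart, at -0.39 with adjusted p = 0.0829, and it was called once BPAP 3 was left out, with 0.0403 (0.0403 to 0.273 over its 17 alternatives). Mcm9, the partner of Mcm8, averaged 15.1 ± 1.24 CPM in BPAP and 14.8 ± 1.15 CPM in DMSO (SD, n = 3 each), at 0.03 with adjusted p = 0.864. Its exons share 1748 bases with Asf1a on the opposite strand, so its count is uncertain.

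At the step that switches the loaded helicase on, 4 of 8 genes were lower (50%, against 15.5% over all genes tested). Cdc7 (ENSMUSG00000029283, chr5:106964322-106984432), the kinase that phosphorylates the ring, had 9.68, 7.98 and 10.1 CPM in the BPAP libraries, against 17.5, 19.5 and 18.3 CPM in the DMSO libraries. The BPAP mean was about 0.50 times the DMSO mean and the groups did not overlap, with a log2 fold change of -0.996 ± 0.14 (SE) with an adjusted p of 0.00112. Topbp1 (ENSMUSG00000032555, chr9:103305215-103350428), the scaffold that brings Cdc45 and GINS to the origin, had 72.9, 61.7 and 71.1 CPM in the BPAP libraries, against 114, 114 and 115 CPM in the DMSO libraries. The DMSO libraries were almost equal and far above BPAP, with a log2 fold change of -0.74 ± 0.09 (SE) with an adjusted p of 0.000773. Dbf4, the activating subunit of Cdc7, averaged 47.4 ± 6.68 CPM in BPAP and 72.3 ± 5.30 CPM in DMSO (SD, n = 3 each), at -0.61 with adjusted p = 0.00452. With the length and GC trend removed, Dbf4 was at -0.33 with adjusted p = 0.0912 (0.000106 to 0.0912 over its 17 alternatives). Cdc45, the helicase cofactor, averaged 18.2 ± 1.91 CPM in BPAP and 25.2 ± 2.15 CPM in DMSO (SD, n = 3 each) and was lower at -0.47 with adjusted p = 0.0166, with an adjusted p of 0.0519 without BPAP 1 and 0.0660 without DMSO 2 (0.00923 to 0.0660 over its 17 alternatives). It shares 209 exon bases with Ufd1 on the opposite strand and is uncertain. The 4 GINS subunits, which join Cdc45 in the moving helicase, showed no call. Gins1 was at -0.03, Gins4 at 0.04, Gins2 at 0.07 and Gins3 at 0.31 on the log2 scale. Gins3 had 40.1, 61.1 and 36.4 CPM in the BPAP libraries, against 34.8, 38.8 and 37.5 CPM in the DMSO libraries, so that BPAP 2 alone stood high, and without BPAP 2 the value was 0.05. Gins2 shares 2758 exon bases with Gse1 on the opposite strand and is uncertain.

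In the polymerases and primase, 4 of 9 genes were lower (44.4%, against 15.5% over all genes tested), and they were the catalytic subunits. Pola1 (ENSMUSG00000006678, chrX:93304767-93632155), which starts each new strand, had 13.3, 11.5 and 15.7 CPM in the BPAP libraries, against 30.2, 29.2 and 32.3 CPM in the DMSO libraries. The groups were far apart, with a log2 fold change of -1.18 ± 0.13 (SE) with an adjusted p of 0.000545. This was the strongest decrease of the 57 genes, and it was -0.88 (adjusted p = 0.00133, against 5.46e-11 to 0.00896 over its 17 alternatives) with the length and GC trend removed. Prim1 (ENSMUSG00000025395, chr10:128015168-128030037), the catalytic primase subunit, had 12.6, 12.9 and 13.5 CPM in the BPAP libraries, against 22.2, 22.9 and 21.2 CPM in the DMSO libraries. Both groups were tight and apart, with a log2 fold change of -0.76 ± 0.11 (SE) with an adjusted p of 0.00150. Pole, the catalytic subunit of polymerase epsilon, averaged 15.7 ± 2.87 CPM in BPAP and 26.7 ± 1.02 CPM in DMSO (SD, n = 3 each), at -0.77 with adjusted p = 0.00375. Pold1, the catalytic subunit of polymerase delta, averaged 31.1 ± 1.55 CPM in BPAP and 40.8 ± 3.31 CPM in DMSO (SD, n = 3 each), at -0.39 with adjusted p = 0.0182, with an adjusted p of 0.0583 without BPAP 1, 0.0526 without BPAP 3, 0.0725 without DMSO 2 and 0.0676 without DMSO 3 (0.0115 to 0.0725 over its 17 alternatives). The 5 accessory subunits among these 9 genes were not called. Other accessory subunits stand in a further list described below, where Pole4 and Pold4 were called higher and Pole3 was not called. Pola2 was at -0.31 with adjusted p = 0.0984 and was called lower without BPAP 2, where the adjusted p was 0.0141 (0.0141 to 0.473 over its 17 alternatives). Prim2 was at -0.21 with adjusted p = 0.126 with groups that did not overlap, Pold3 at -0.25 with adjusted p = 0.103 and Pole2 at -0.18 with adjusted p = 0.406. With a replicate term in edgeR, Pold3 was called lower with an adjusted p of 0.0449 (0.0449 to 0.225 over its 17 alternatives). Pold2 was at 0.27 with adjusted p = 0.157, the only positive value among the 9, and without BPAP 1 its adjusted p was 0.0489 (0.0489 to 0.997 over its 17 alternatives).

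Among the clamp, its loader and the proteins that bind single-stranded DNA, 1 of 9 genes was lower. That share of 11.1% is under the 15.5% over all genes tested. Pcna (ENSMUSG00000027342, chr2:132249162-132253314), the clamp that holds the polymerases on DNA, had 75.9, 80.7 and 81.2 CPM in the BPAP libraries, against 73.9, 83.3 and 74.7 CPM in the DMSO libraries. Its groups overlapped, at 0.04 ± 0.09 (SE) with an adjusted p of 0.787. Its count is uncertain because the pseudogene Pcna-ps2 took a further 491 to 544 counts per library in BPAP and 467 to 660 in DMSO. Rfc1 (ENSMUSG00000029191, chr5:65261850-65335670), the large subunit of the loader that opens the clamp, had 80.9, 66.8 and 79.8 CPM in the BPAP libraries, against 105, 108 and 108 CPM in the DMSO libraries. This was the gene called, with a log2 fold change of -0.50 ± 0.10 (SE) with an adjusted p of 0.00480. Rfc4 (ENSMUSG00000022881, chr16:23113943-23127737), a small loader subunit, had 17.5, 17.1 and 19.3 CPM in the BPAP libraries, against 13.9, 15.6 and 17.0 CPM in the DMSO libraries. Its values lay above DMSO without overlap, at 0.21 with adjusted p = 0.230, and at -0.04 with the length and GC trend removed. Rfc2, Rfc3 and Rfc5 lay between -0.19 and 0.02, and Rpa1, Rpa2 and Rpa3, which coat single-stranded DNA, between -0.13 and 0.09, all with overlapping groups. Rfc2, Rfc4 and Rfc5 overlap genes on the opposite strand and are uncertain.

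Of the pair that finishes lagging-strand pieces, Lig1 was lower and Fen1 was not called, with values above DMSO. Lig1 (ENSMUSG00000056394, chr7:13277283-13311433), the ligase that seals them, had 37.9, 38.2 and 41.0 CPM in the BPAP libraries, against 54.1, 65.7 and 61.4 CPM in the DMSO libraries. The groups stood apart, with a log2 fold change of -0.63 ± 0.10 (SE) with an adjusted p of 0.00223. Its exons share 247 bases with Zswim9 on the opposite strand, so its count is uncertain. Fen1 (ENSMUSG00000024742, chr19:10199132-10204169), the nuclease that trims their ends, had 24.8, 21.8 and 20.9 CPM in the BPAP libraries, against 15.0, 17.7 and 7.95 CPM in the DMSO libraries. All BPAP values were above DMSO, but DMSO 3 lay far under the other two, and the log2 fold change of 0.74 ± 0.26 (SE) had an adjusted p of 0.0593. The call on Fen1 turned on the method, with adjusted p = 0.0154 by DESeq2, 0.0344 by limma-voom and 0.0433 by limma-trend on log2(FPKM + 1), and it was 0.0259 without DMSO 2, with 0.0154 to 0.185 over its 17 alternatives. The exons of Fen1 overlap Tmem258 and an antisense gene on the opposite strand, so its count is uncertain.

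Nucleotide supply held the strongest decrease after Pola1. Rrm2 (ENSMUSG00000020649, chr12:24708241-24714146), the regulated subunit of ribonucleotide reductase, had 25.6, 19.2 and 26.1 CPM in the BPAP libraries, against 49.1, 47.1 and 53.1 CPM in the DMSO libraries. BPAP libraries were at less than the lowest DMSO value throughout, with a log2 fold change of -1.07 ± 0.13 (SE) with an adjusted p of 0.000706. Rrm1 (ENSMUSG00000030978, chr7:102441695-102469771), its large partner subunit, had 118, 98.7 and 121 CPM in the BPAP libraries, against 169, 171 and 171 CPM in the DMSO libraries. The DMSO libraries lay in a narrow range above BPAP, at -0.60 with adjusted p = 0.00199. Tk1, the thymidine kinase of S phase, averaged 25.4 ± 1.45 CPM in BPAP and 32.7 ± 3.49 CPM in DMSO (SD, n = 3 each) and was lower at -0.37 with adjusted p = 0.0344, with an adjusted p of 0.0872 without BPAP 1, 0.0663 without BPAP 2, 0.129 without DMSO 2 and 0.107 without DMSO 3 (0.0197 to 0.129 over its 17 alternatives). It shares 83 exon bases with Afmid on the opposite strand and is uncertain. Tyms, which makes thymidylate, averaged 7.63 ± 1.64 CPM in BPAP and 9.10 ± 1.97 CPM in DMSO (SD, n = 3 each), at -0.25 with adjusted p = 0.388. Dut, which removes dUTP, was at 0.11 with adjusted p = 0.623.

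Of the genes that copy methylation and chromatin, 3 of 4 were lower (75%, against 15.5% over all genes tested). Uhrf1 (ENSMUSG00000001228, chr17:56303321-56323486), which recognises hemimethylated DNA and calls in Dnmt1, had 51.4, 41.9 and 53.5 CPM in the BPAP libraries, against 87.6, 89.9 and 89.7 CPM in the DMSO libraries. BPAP lay clearly below DMSO, with a log2 fold change of -0.86 ± 0.11 (SE) with an adjusted p of 0.000722. Dnmt1 (ENSMUSG00000004099, chr9:20907206-20959888), the maintenance methyltransferase and the gene with the most counts in the list, had 252, 232 and 244 CPM in the BPAP libraries, against 343, 357 and 326 CPM in the DMSO libraries. It was lower in every BPAP library, with a log2 fold change of -0.49 ± 0.08 (SE) with an adjusted p of 0.00230. Chaf1a, the large subunit of the histone chaperone CAF-1, averaged 22.9 ± 3.33 CPM in BPAP and 31.1 ± 1.12 CPM in DMSO (SD, n = 3 each), at -0.44 with adjusted p = 0.0221. Its adjusted p was 0.0800 without BPAP 1, 0.0575 without DMSO 2 and 0.0731 without DMSO 3, and 0.0882 with the length and GC trend removed (0.0133 to 0.150 over its 17 alternatives). It shares 4648 exon bases with Ubxn6 on the opposite strand, so its count is uncertain. Chaf1b, the middle subunit, averaged 16.8 ± 1.09 CPM in BPAP and 17.2 ± 0.91 CPM in DMSO (SD, n = 3 each), at -0.04 with adjusted p = 0.838.

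At the fork checkpoint, Clspn (ENSMUSG00000042489, chr4:126556935-126593903), the claspin adaptor that passes the signal of Atr to Chek1, had 24.2, 14.6 and 21.7 CPM in the BPAP libraries, against 36.6, 40.3 and 37.4 CPM in the DMSO libraries. BPAP 2 was the lowest and no group values overlapped, with a log2 fold change of -0.92 ± 0.16 (SE) with an adjusted p of 0.00350. Tipin (ENSMUSG00000032397, chr9:64281607-64304792), the partner of Timeless at the fork, had 27.8, 31.6 and 31.1 CPM in the BPAP libraries, against 29.5, 29.0 and 32.2 CPM in the DMSO libraries, and at -0.00 with adjusted p = 0.978 its groups overlapped.

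The count ratio of 2 genes in the same library does not depend on library scaling, and 12 pairs from the same complex or step were set side by side. The pairs were chosen after the values were seen, each with a gene called lower over a partner that was not called, so the direction is fixed by the choice and no test is given. Mcm4 counts were 0.489, 0.479 and 0.478 times those of Mcm2 in the BPAP libraries, against 0.815, 0.725 and 0.872 times in the DMSO libraries. The merged exons of Mcm4 are shorter than those of Mcm2, so the ratio compares libraries and not the levels of the genes. It was lower in every BPAP library. Pola1 counts were 0.529, 0.333 and 0.578 times those of Pola2 in BPAP, against 0.780, 0.818 and 0.970 times in DMSO. For Prim1 over Prim2 the ratios were 0.420, 0.460 and 0.473 in BPAP, against 0.663, 0.686 and 0.639 in DMSO. For Clspn over Tipin the ratios were 0.868, 0.463 and 0.697 in BPAP and 1.24, 1.39 and 1.16 in DMSO.

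**Figure D4:**
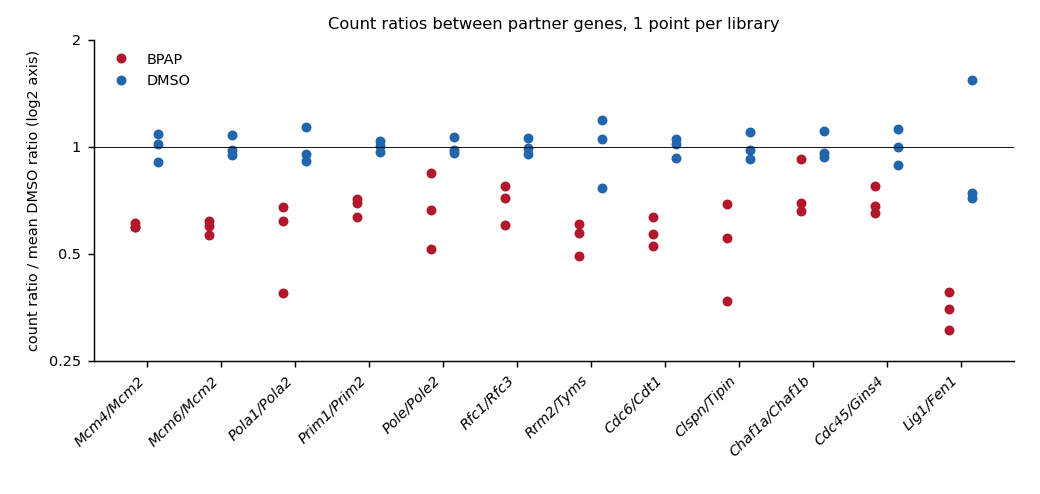
Count ratio of 12 gene pairs in each library, divided by the mean DMSO ratio of the pair, on a log2 axis, with BPAP in red left of DMSO in blue. Mcm4 over Mcm2 and Prim1 over Prim2 show tight BPAP points, and Lig1 over Fen1 has the highest DMSO point, from DMSO 3.

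Genes that work beside the listed machinery were taken from 5 further lists with 93 genes, all of them tested, of which 33 were lower and 7 were higher (35.5% lower and 7.5% higher, against 15.5% and 16.2% over all genes tested). The 5 lists were chosen with earlier results of these data known, so these shares describe the lists and are no test. The 7 higher genes became 4 without BPAP 3, 3 without DMSO 2 and 4 without DMSO 3. Among 26 other replisome and fork factors, 11 were lower and 3 higher (42.3% lower and 11.5% higher). Atad5, which unloads the clamp, was at -1.23 with adjusted p = 0.000831, Wdhd1, which ties polymerase alpha to the helicase, at -0.83 with adjusted p = 0.00231, and Ticrr, which works with Topbp1, at -0.80 with adjusted p = 0.00538. Pole4, a small subunit of polymerase epsilon, was higher, with 23.5, 25.4 and 25.3 CPM in the BPAP libraries, against 12.7, 16.7 and 16.3 CPM in the DMSO libraries, and a log2 fold change of 0.70 ± 0.13 (SE) with an adjusted p of 0.00392. The other two higher genes, named after their values were seen, were Recql4 (0.48 with adjusted p = 0.0268) and Pold4 (0.32 with adjusted p = 0.0344). Recql4 lost its call without BPAP 3, DMSO 1, DMSO 2 or DMSO 3 (adjusted p 0.0638 to 0.0940), and Pold4 without BPAP 1, BPAP 3, DMSO 2 or DMSO 3 (0.0573 to 0.133). With the length and GC trend removed, Pold4 was at -0.02.

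Of 9 other chromatin factors of S phase, 3 were lower and 1 was higher (33.3% lower and 11.1% higher). Esco2, which acetylates cohesin at the fork, had 15.8, 9.31 and 17.0 CPM in the BPAP libraries, against 46.0, 35.1 and 39.0 CPM in the DMSO libraries. This was a wide gap, with a log2 fold change of -1.51 ± 0.21 (SE) with an adjusted p of 0.00153. Hells, a remodeller linked to DNA methylation, was at -0.75 with adjusted p = 0.00240, and at -0.40 with adjusted p = 0.0155 with the length and GC trend removed (7.40e-06 to 0.0155 over its 17 alternatives). Nasp, a histone chaperone, was called at -0.30 with adjusted p = 0.0455 but not once any library was left out (adjusted p 0.0646 to 0.107 over BPAP 1, BPAP 2, BPAP 3, DMSO 1, DMSO 2 and DMSO 3), and it was at -0.06 with the length and GC trend removed. Rbbp4, a histone-binding partner of Chaf1a, was higher at 0.33 with adjusted p = 0.0226, with an adjusted p of 0.0575 without BPAP 3, 0.0864 without DMSO 1 and 0.0664 without DMSO 2 (0.00632 to 0.0910 over its 17 alternatives), and it stood at 0.53 with the length and GC trend removed.

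Among 18 other genes of nucleotide synthesis, 3 were lower and 2 higher (16.7% lower and 11.1% higher), shares near or under those over all genes. Cad, the first enzyme of pyrimidine synthesis, was at -0.59 with adjusted p = 0.00269, and Samhd1, which breaks nucleotides down and so works against supply, at -0.52 with adjusted p = 0.00367, with Samhd1 at -0.33 once the length trend alone was removed (adjusted p = 0.0222, and 2.74e-05 to 0.0222 over its 17 alternatives). Nme2, a nucleoside diphosphate kinase, was higher at 0.74 with adjusted p = 0.00726, but shares 573 exon bases with Gm20390 on the same strand and is uncertain. Tk2, the mitochondrial thymidine kinase, was higher at 0.54 with adjusted p = 0.0123, with an adjusted p of 0.0504 without DMSO 1. With the length and GC trend removed, Nme2 was at 0.40 and the adjusted p was 0.0644 for Nme2 (4.80e-05 to 0.0644 over its 17 alternatives) and 0.0643 for Tk2 (0.00180 to 0.0643 over its 17 alternatives).

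Of 30 genes of G1/S control, 13 were lower and 1 was higher (43.3% lower and 3.3% higher). Ccne2, a cyclin of S phase entry, had 3.09, 1.58 and 3.69 CPM in the BPAP libraries, against 8.71, 9.22 and 7.74 CPM in the DMSO libraries. It was the steepest fall of the 5 lists, with a log2 fold change of -1.61 ± 0.26 (SE) with an adjusted p of 0.00206, though it overlaps Ints8 on the opposite strand. Fbxo5, an inhibitor of the APC/C ubiquitin ligase, was at -1.29 with adjusted p = 0.00156, E2f7, a repressor among the E2F factors, at -0.998 with adjusted p = 0.00362, and Lin54, a DNA-binding part of the DREAM complex, at -0.53 with adjusted p = 0.00356. With the length and GC trend removed Lin54 was at -0.33 with adjusted p = 0.0312 (0.000128 to 0.0312 over its 17 alternatives). The 13 genes of this G1/S list that fell therefore included a repressor, E2f7, as well as an activator of the cycle, Ccne2. The gene called higher was Cdk4, a G1 kinase, at 0.43 with adjusted p = 0.0311, named after its values were seen, with an adjusted p of 0.0728 without BPAP 1, 0.0950 without BPAP 2, 0.108 without DMSO 2 and 0.107 without DMSO 3 (0.00544 to 0.194 over its 17 alternatives). With the length and GC trend removed it was at 0.27, and its exons share 641 bases with Tspan31 on the opposite strand. In the fork stress checkpoint 3 of 10 were lower (30.0%). The kinase Atr was at -1.05 with adjusted p = 0.000803, its activator Etaa1 at -0.69 with adjusted p = 0.0100 and its target kinase Chek1 at -0.74 with adjusted p = 0.0121. The merged exons of Atr, over all its annotated transcripts, cover 23629 bases. Atr was at -0.31 with adjusted p = 0.0223 once the length and GC trend was removed (2.09e-10 to 0.0223 over its 17 alternatives).

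Longer genes tended to be lower in BPAP across the whole table, and so did the longer genes of the list. Spearman's rho between log2 fold change and merged exon length, as a description across genes that share the same libraries, was -0.489 over the 57 genes and -0.402 over 11677 tested genes with a length. In the 28 shorter genes of the list (1136 to 4268 bases) 9 were lower with a median log2 fold change of -0.05, and in the 29 longer ones (4426 to 11226 bases) 14 were lower with a median of -0.37. Over all genes tested, of any length, 15.5% were lower. The shares of all tested genes within these length ranges were not counted, so the split describes the list alone. When the dependence on exon length and GC content was taken out of every library, 22 of the 57 were lower and 0 higher by edgeR, against 10.9% and 11.8% of the 11665 genes tested that way. At an unadjusted p under 0.05 those counts were 29 and 1 (Orc4), against 18.3% and 18.9% of all genes. Of these 22, 21 were among the 23 called before. Dbf4 and Chaf1a dropped out and Mcm5 came in, at -0.40 with adjusted p = 0.0267. Rrm2, with a short merged exon length of 2771 bases, stood at -1.22 after removal, Cdc7 at -1.004 and Uhrf1 at -0.94, each as low as before or lower. Topbp1, with merged exons of 11226 bases, stood at -0.47 and Rrm1, with 11012 bases, at -0.31, both nearer to 0 than as counted and both still called. The removal shifts each gene by an amount set by its length and GC content, so these shifts follow from it and are no result about the genes. Gins4, the second shortest of the list, moved to -0.32 with adjusted p = 0.0505 (0.0505 to 0.980 over its 17 alternatives).

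**Figure D5:**
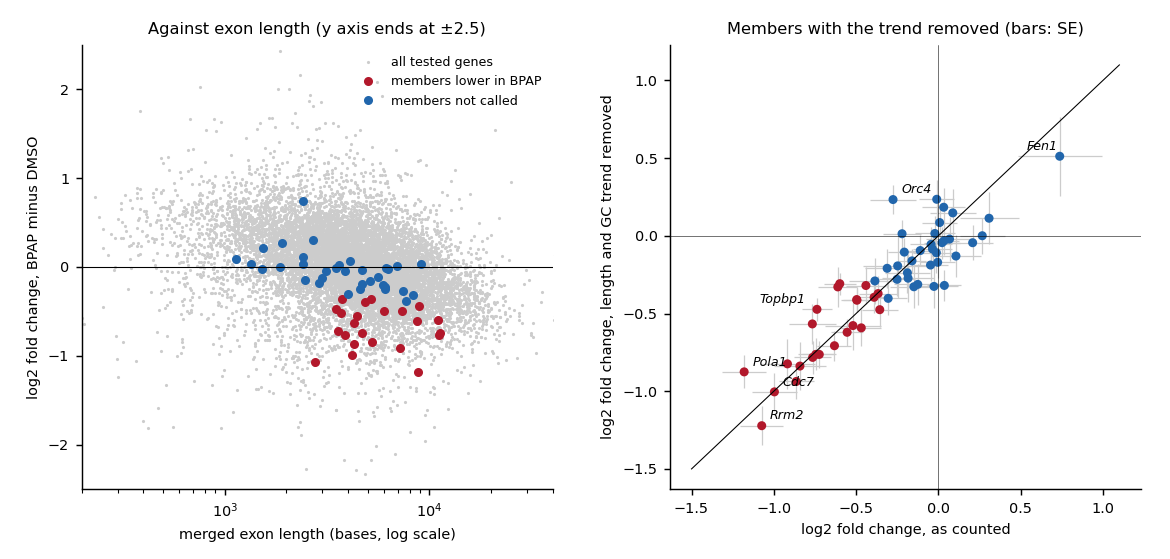
Left, log2 fold change (BPAP minus DMSO) against merged exon length on a log axis, for all tested genes in grey, the 23 listed genes called lower in red and the 34 not called in blue. Right, the log2 fold change of each listed gene with the length and GC trend removed against that as counted, with standard errors and a line of equality; Pola1 and Topbp1 lie above the line and Rrm2 just below it.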

How the data were processed

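RNA was sequenced from 3 BPAP and 3 DMSO libraries, and groups and replicate numbers were taken from the labels. The authors deposited raw counts per gene and FPKM values in 1 table, per the file headers. HISAT2 2.0.4, StringTie 1.3.3b, edgeR and build GRCm38 are named, without roles, per the submitters' processing notes. Neither the strand setting nor the handling of shared reads is stated there. The length behind the deposited FPKM is 0.35 to 2.89 times the merged exon length of the listed genes, so levels per kilobase use GENCODE M21 merged exons. Gene coordinates are those of the deposited table.

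Counts were filtered with filterByExpr (11711 of 34745 genes kept), scaled by TMM and tested with edgeR 4.0.16 (R 4.3.3), quasi-likelihood, robust, treatment as the only term, Benjamini-Hochberg adjusted p under 0.05 for a call. Standard errors are those implied by the fold change and its test. Alternatives used DESeq2 1.42.0, limma 3.58.1 on counts (voom) and on log2(FPKM + 1) or log2(FPKM + 0.1) for genes with a mean FPKM of at least 1 or with no filter, other scalings, no filter, a replicate term, each library left out, and lowess offsets (span 0.3) for exon length, alone or with GC content. The code was tested on simulated data. No 2 libraries matched within sampling noise, since the lowest chi-square per degree of freedom was 7.00.

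The genes, roles and further lists were chosen with earlier results of these data known. Values per library are given for the 2 genes of each role with the lowest p, Mcm2 to Mcm7, Pcna, Pola1 and Rrm2, and for Gins3, Pole4, Esco2 and Ccne2, which were added after their values were seen, and from each further list up to 4 called genes with the lowest p are named. A further called gene of nucleotide synthesis is not reported here. Of the promoter windows, 54 of 61 ended in bases found in a transcript of their gene and 0 in the reverse direction.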

Additional observations from a re-analysis of the deposited data

How the results depend on the processing

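Of the 23 genes called lower, 16 kept their call under all 17 alternatives in which they could be tested, and 29 of 389 values lost it, all with the same sign. The 34 other genes gained a call in 18 values, and 27 of them never did. Over all genes, the number called higher was 1127 by limma-trend on log2(FPKM + 1) with no filter, and 1244 to 1654 with 1 library left out. Of the 57 genes, 1 was higher by DESeq2, 1 by limma-voom, 1 on log2(FPKM + 1) and 1 with the replicate block, and 0 to 1 with 1 library left out. Of the 93 genes of the further lists, 2 were higher on log2(FPKM + 1) with no filter, 4 with the length and GC trend removed, and 3 to 6 with 1 library left out. These counts rest on fewer libraries where 1 was left out. The cause of the other changes was not tested.

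Same-numbered libraries correlated at 0.101, 0.054 and 0.010 in their deviations from the group means, and the other pairs at -0.086 to 0.045. DMSO 3 correlated more with BPAP 2 (0.045) than with BPAP 3. These values do not settle whether the replicate numbers pair the libraries. With the replicate block 26 of the 57 genes were lower and 1 higher.

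The sign of the log2 fold change turned for some genes that had not been called, and for Pold4. With upper quartile scaling the values were 0.0093 for Orc1, 0.0121 for Orc5, 0.0001 for Rfc2 and 0.017 for Tipin. With DESeq2 size factors Mcm2 was at -0.0014. On log2(FPKM + 1), with and without the filter, Mcm2 was at -0.0209 and Rfc3 at -0.0042, and on log2(FPKM + 0.1) they were at -0.0236 and -0.0047. With the length and GC trend removed the values were 0.0136 for Orc3, 0.23 for Orc4, 0.24 for Orc5, -0.0208 for Gins2, -0.32 for Gins4, -0.0307 for Pcna, 0.0152 for Rfc2, -0.0439 for Rfc3, -0.0442 for Rfc4, -0.13 for Dut and -0.0236 for Pold4. With the length trend alone removed they were 0.0823 for Orc5, -0.26 for Gins4, -0.14 for Pcna, 0.0767 for Rfc2, -0.0519 for Rfc3, -0.0698 for Rfc4, -0.23 for Rpa3 and -0.0686 for Dut.

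With 1 library left out, the values ran from -0.14 to 0.0088 for Cdt1, -0.0852 to 0.0059 for Chaf1b, -0.026 to 0.21 for Dut, -0.12 to 0.11 for Gins1, -0.0222 to 0.12 for Gins2, -0.0058 to 0.0487 for Gins4, -0.079 to 0.0759 for Mcm2 and -0.0412 to 0.0992 for Mcm9. They ran from -0.0929 to 0.0391 for Orc1, -0.17 to 0.0529 for Orc2, -0.0885 to 0.0561 for Orc5, -0.0142 to 0.0925 for Pcna, -0.12 to 0.0974 for Rfc2, -0.048 to 0.0661 for Rfc3, -0.0385 to 0.19 for Rpa3 and -0.0405 to 0.0528 for Tipin.

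Called values that moved by over 1.5 times on log2(FPKM + 1), a scale that understates low genes, were those of Cdc7 (-0.64), Pole (-0.48) and Ticrr (-0.43), and with no filter also Cdc6 (-0.41), Ccne2 (-0.65), Chek1 (-0.37) and E2f7 (-0.43). Chaf1a was at -0.26 with the length trend alone removed.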
